A study of Bos taurus with 6 samples.

Results

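The cytosolic ribosomal protein genes encode the proteins of the ribosome that works in the cytoplasm. On this bovine array 67 of them carry a named probe set, out of 9155 named genes in all. They were taken by symbol from the platform's probe-to-gene table. The rule was RPL or RPS with a number and at most a final A, X, Y or L with optional digits. RPSA and the stalk proteins were also taken. Of the 67, 42 have an RPL symbol (large subunit) and 25 an RPS symbol (small subunit, RPSA among them). Where a gene had several probe sets (18 genes), the one with the highest mean signal over the 6 arrays stood for it. The gene table used for names lists 16 more symbols that satisfy the rule but have no named probe set here, among them RPS4X, RPS27A, RPLP1, RPL10L and RPL22L1.

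RNA came from testis tissue of Angus bull calves aged 2, 4 or 8 weeks, with 2 Affymetrix bovine GeneChip arrays per age and 6 in all. No treatment, genotype or pooling is named in the labels. Whether the 2 arrays of an age represent different calves is not stated. The p-values below therefore rest on the spread among these 6 samples, and that spread may be technical. The question put by the design is how testis transcript levels differ between these ages.

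A ribosome has a small subunit, which holds and reads the messenger RNA, and a large subunit, which joins amino acids. Each cytosolic ribosome carries a single copy of most of these proteins, and cells make the proteins in balanced amounts. Their mRNAs are abundant in nearly every cell type and share a pyrimidine tract at the 5′ end, through which growth signals (the mTOR pathway) turn their translation up and down together. In the young testis, Sertoli cells, spermatogonia and the cells between the cords all need new ribosomes to grow. Ribosomal protein genes have many processed pseudogenes and near-identical copies, so probes can pick up more than a single transcript.

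Values are scaled signals per probe set on a linear scale. Differences are on the log2(signal + 16) scale. The arrays had nearly equal trimmed means (125.02 to 125.03) and medians of 46.3 to 52.4, while the highest signal of an array ranged from 7297.3 to 9501.4. 2wk replicate 2 stood apart: its log2 values correlated with those of the other arrays at 0.947 on average, against 0.964 to 0.969 for the other 5. 2wk replicate 1 was closest to 4wk replicate 1 (r = 0.976) and correlated with its own replicate at 0.948. Sertoli, Leydig and germ cell markers had summed signals of 13292 to 16971 (5 genes), 10097 to 15631 (5 genes) and 866.2 to 1290.7 (4 genes) over the arrays. The germ cell sum came mostly from UCHL1 and KIT. POU5F1 was at 28.7 in 8wk replicate 2 and EPCAM at 27.6 in 4wk replicate 2, near the highest Bacillus control (28.1). The summed leukocyte, erythroid, skeletal muscle and endothelial markers were higher in 2wk replicate 2 than in 2wk replicate 1, although PTPRC, MB, PECAM1 and VWF were lower there. The 9 named leukocyte genes summed to 1920.4 and 3503.6 (2 weeks), 2125.1 and 1828.2 (4 weeks), and 1515.8 and 1535.0 (8 weeks), and 8 of the 9 were above their own mean in 2wk replicate 2. The 4 erythroid genes summed to 43.4 and 408.8 at 2 weeks and to 74.1 to 165.6 later, with HBA and ALAS2 below the highest Bacillus control (28.1) on all arrays.

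The ribosomal protein genes moved together from array to array, and the moves did not follow age. The 60 genes with a mean signal of at least 3000 had a median signal of 5741 in 2wk replicate 1, 7684 in 2wk replicate 2, 6222 in 4wk replicate 1, 6928 in 4wk replicate 2, 6750 in 8wk replicate 1 and 6336 in 8wk replicate 2. The highest and the lowest of these medians thus both came from 2-week samples, and the 4-week and 8-week arrays lay between them. Of the 62 genes with a mean signal of at least 1000, 54 were highest in 2wk replicate 2 and 52 were lowest in 2wk replicate 1. The other 8 were highest in 4wk replicate 2 (7 genes) or 8wk replicate 1 (1 gene).

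**Figure D1:**
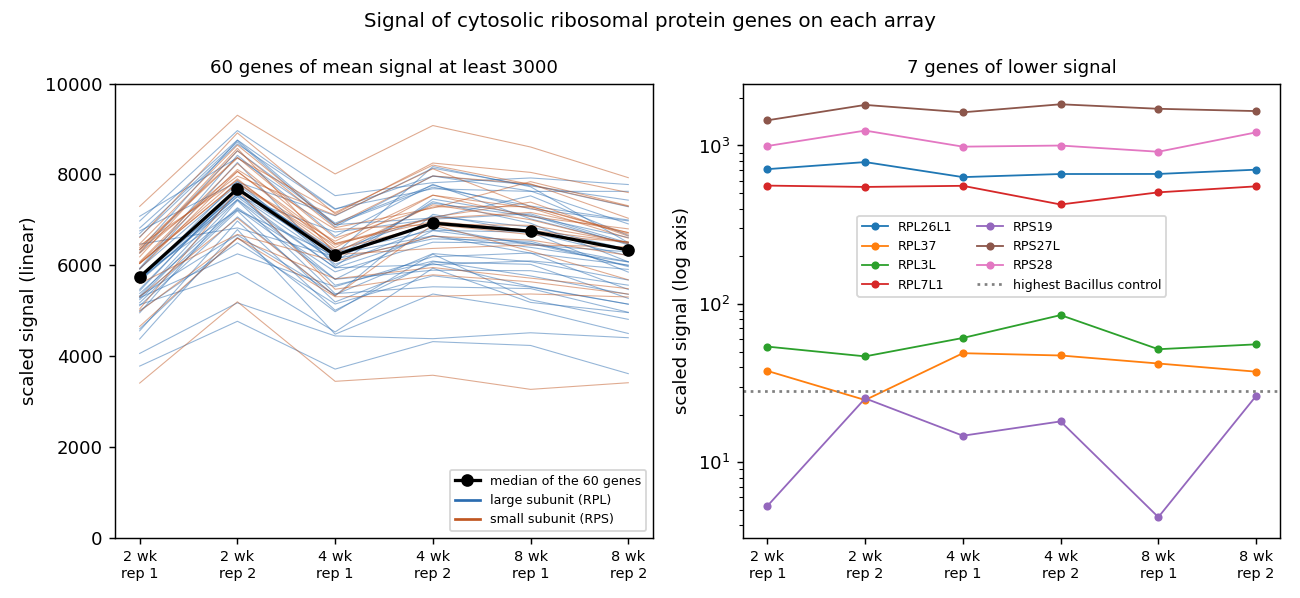
Scaled signal of each cytosolic ribosomal protein gene (vertical axis) on the 6 arrays (horizontal axis), with the 60 genes of mean signal at least 3000 on a linear axis at left and the 7 dimmer genes on a log axis at right; lines join the values of 1 gene and the black points are medians. The median runs from 5741 in 2wk replicate 1 to 7684 in 2wk replicate 2, and the lines of the bright genes run nearly parallel, while RPS19 lies below the highest Bacillus control (28.1) on all 6 arrays.

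Relative to each gene's own mean over the 6 arrays, the average of all 67 genes was -0.17 in 2wk replicate 1 and 0.21 in 2wk replicate 2, -0.08 and 0.08 in the 4-week replicates, and 0.01 and -0.05 in the 8-week replicates. In 2wk replicate 2, 65 of the 67 genes were above their own mean, and in 2wk replicate 1 only 2 were (RPL7L1 and RPL26L1). Large-subunit genes averaged -0.16, 0.20, -0.08, 0.08, 0.03 and -0.07 over the arrays in that order. Small-subunit genes averaged -0.19, 0.24, -0.08, 0.06, -0.01 and -0.03, so both subunits followed the same course. The small-subunit averages include the dim probe set of RPS19. In the 8-week replicates the medians were 0.03 and -0.06 for the small subunit and 0.03 and -0.07 for the large.

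Between the replicates of 1 age the shift was gene-wide. At 2 weeks the second replicate was higher for 64 of 67 genes, at 4 weeks also for 64, and at 8 weeks for 7. Over all 14409 probe sets tested the share higher in the second replicate was 50.9%, 49.9% and 50.7%. Among the 637 other tested probe sets of mean signal at least 1000 it was 68.6%, 57.5% and 43.8%, leaning the same way at each age. Of the 62 ribosomal protein genes of that signal, 62, 61 and 3 were higher in the second replicate. For the 62 genes of signal at least 1000 the ratio of the second to the first replicate had a median of 1.32 (range 1.06 to 1.55) at 2 weeks, 1.12 (0.986 to 1.34) at 4 weeks and 0.933 (0.841 to 1.33) at 8 weeks.

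Other bright transcripts took a similar course on these arrays. The 118 tested probe sets outside the family with a mean signal of at least 3000 averaged -0.18 and 0.16 (2 weeks), -0.09 and 0.08 (4 weeks), and 0.06 and -0.04 (8 weeks), and 102 of them were above their own mean in 2wk replicate 2. The average of all tested probe sets stayed between -0.03 and 0.03. With quantile normalization, which makes the ordered values of all arrays equal and so fixes the level of the brightest probe sets, the array averages of the 67 ribosomal protein genes lay between -0.02 and 0.01. In that setting the second replicate at 2 weeks was higher for 31 of the 62 genes of signal at least 1000, at 4 weeks for 26 and at 8 weeks for 27. Leukocyte genes, which on average were also highest in 2wk replicate 2, stood at 0.73 there with the deposited scaling and 0.74 with quantile normalization. Whether cells of another type or the scaling of bright signals had a part in the shift of the ribosomal protein genes was not tested beyond these values. In whole tissue, fewer cells of a type and less RNA per cell cannot be told apart.

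**Figure D2:**
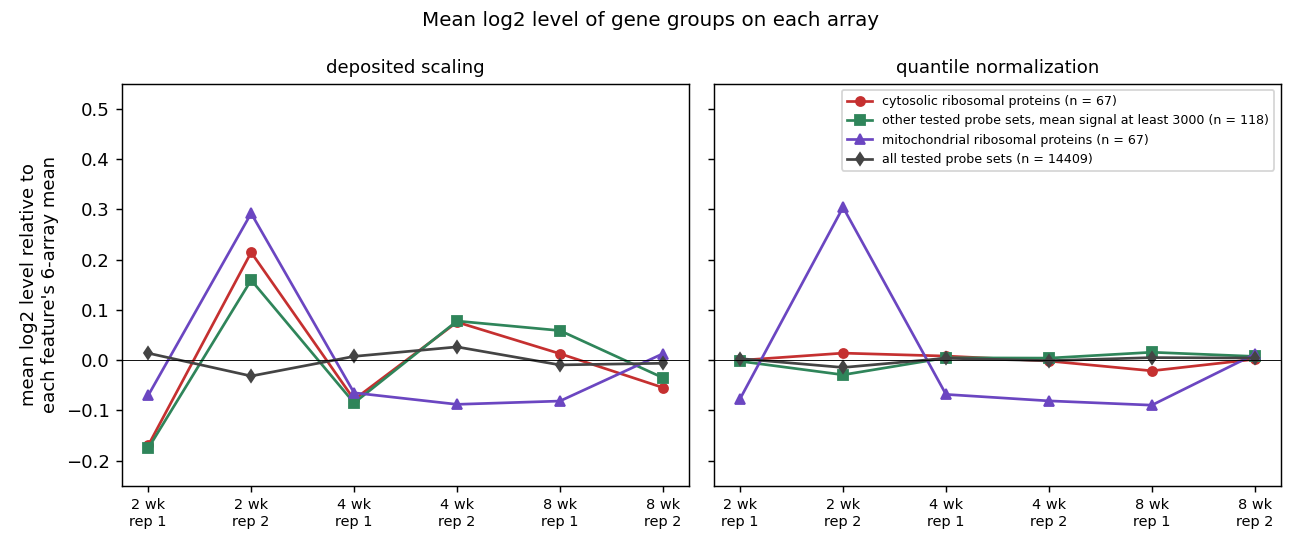
Mean log2 level of 4 groups relative to each feature's own 6-array mean (vertical axis) on the 6 arrays (horizontal axis), with the deposited scaling at left and quantile normalization at right. The 67 cytosolic ribosomal protein genes run from -0.17 to 0.21 between the 2-week replicates at left, close to the 118 other bright probe sets. They lie within -0.02 to 0.01 at right, where the normalization fixes the level of the brightest probe sets. Mitochondrial ribosomal protein genes stay at 0.30 in 2wk replicate 2 at right.

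No cytosolic ribosomal protein gene passed the test between ages. Of the 67, 66 lay above the filter on low values and were tested. Between 8 and 2 weeks 0 of the 66 passed an adjusted p of 0.05 in limma, as did 0% of all probe sets, and 0 of 66 reached an unadjusted p under 0.05, where 6.95% of all probe sets did. Between 4 and 2 weeks both counts were again 0 of 66, against 0% and 3.6% of all probe sets. Between 8 and 4 weeks they were 0 of 66, against 0% and 2.5%, and in the F test over the 3 ages 0 of 66, against 0% and 3.87%. The smallest unadjusted limma p was 0.159 (RPS9) for 8 against 2 weeks, 0.122 (RPL37) for 4 against 2 weeks and 0.213 (RPL3L) for 8 against 4 weeks. The comparisons share arrays in pairs, the first 2 those of 2 weeks.

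The arrays of the 2 ages did not overlap for 1 of 66 genes between 8 and 2 weeks (RPL26L1), where 37.9% of all probe sets did not overlap. For 4 against 2 weeks it was 3 of 66 (RPL26L1, RPL37 and RPL3L) against 27.4%, and for 8 against 4 weeks 6 of 66 (RPL26L1, RPL37, RPL3L, RPS15A, RPS3 and RPS9) against 34.9%. Ribosomal protein genes share their array shifts, so these counts are not counts of independent genes.

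The mean log2 difference over the 67 genes was -0.04 for 8 against 2 weeks (20 higher, 47 lower; median -0.04, against -0.02 over all probe sets tested). It was -0.02 for 4 against 2 weeks (median -0.03, against 0.01) and -0.02 for 8 against 4 weeks (median -0.01, against -0.01). The SD of the family's array mean between replicates was 0.17, larger than each of these differences. The sign changed with the 2-week array used. Without 2wk replicate 1 the mean was -0.24 for 8 against 2 weeks and -0.22 for 4 against 2 weeks, and without 2wk replicate 2 it was 0.15 and 0.17. In these fits the lone 2-week sample was assumed to vary like the other ages. Across the 60 genes of signal at least 3000, the signed 8 against 2 weeks difference rose with log2 mean signal (Pearson r = 0.55, Spearman rho = 0.42). Most differences were negative (44 of the 62 genes of signal at least 1000). The relation thus means more negative values in the less bright genes, not larger changes in the brightest. These genes share the same 6 arrays and are not independent, and the relation is a description with no test.

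The fit allowed a bound on the signal of single genes, if replicates vary alike at all ages. In genes of signal at least 1000 the median log2 replicate gap was 0.40 (2 weeks), 0.16 (4 weeks) and -0.10 (8 weeks). Bounds against 2 weeks may thus be too narrow. Whether signal follows mRNA amount at the top of the array range, where most of these genes lie, was not tested. For 8 against 2 weeks the 95% interval of the log2 difference lay between -1 and 1 on the log2(signal + 16) scale for 66 of 66 genes, the widest reach being -0.82 for RPS9 and 0.85 for RPL37. For 4 against 2 weeks it did so for 65 of 66, RPL37 reaching 1.05, and for 8 against 4 weeks for 66 of 66. In the 62 genes of signal at least 1000 the SE of a difference was 0.17 to 0.23, and the bounds reached from -0.82 to 0.55 for 8 against 2 weeks. For the dim probe sets of RPL37 and RPL3L the added 16 makes a bound on this scale smaller than the change in signal it stands for, so no fold limit is given for them.

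**Figure D3:**
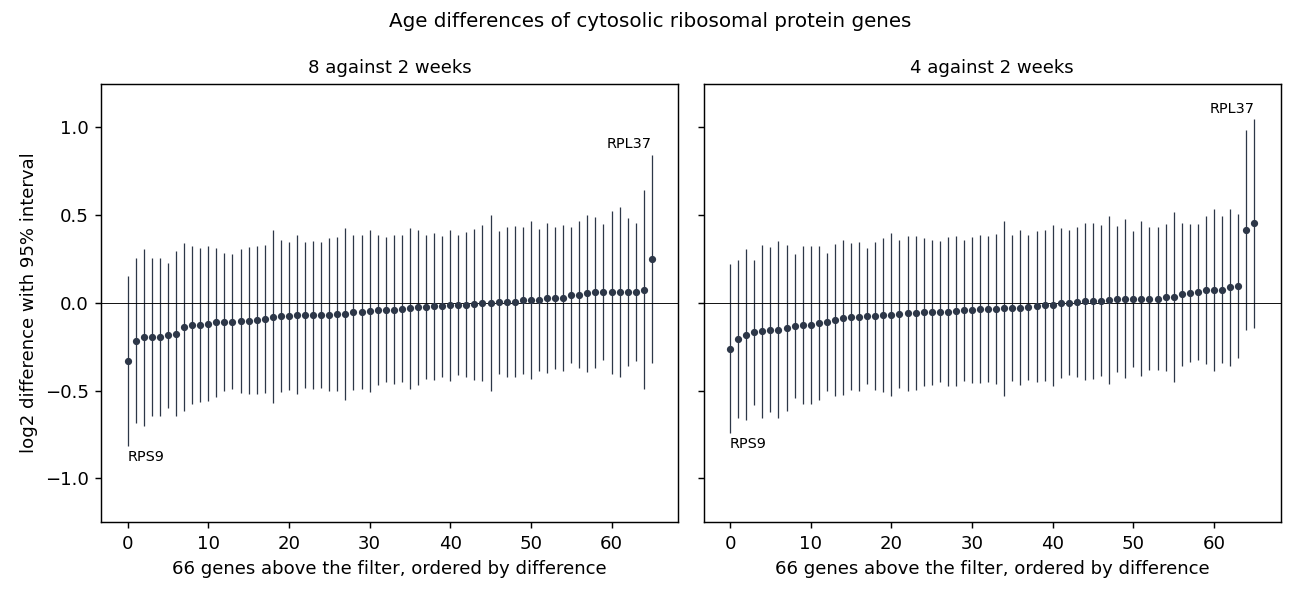
Fitted log2 difference with its 95% interval (vertical axis) for the 66 ribosomal protein genes above the filter, ordered by difference within each panel (horizontal axis), for 8 against 2 weeks at left and 4 against 2 weeks at right. All intervals include 0; RPS9 is lowest in both panels (-0.33 and -0.26) and RPL37 highest (0.25 and 0.45).

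Among the small-subunit genes RPS9, whose protein lines the entry of the mRNA channel, had the lowest p for 8 against 2 weeks. Its signals were 3406 and 5197 (2 weeks), 3445 and 3579 (4 weeks), and 3268 and 3414 (8 weeks). It was high in 2wk replicate 2 and between 3268 and 3579 on the other 5 arrays, so that the 2-week range covered part of the later values. The log2 difference was -0.33 ± 0.22 (SE, 95% interval -0.82 to 0.15; limma adjusted p = 0.697). Without 2wk replicate 1 it was -0.64 with a limma adjusted p of 0.0227, and with quantile normalization -0.30 with an unadjusted limma p of 0.0232 and an adjusted p of 0.697. Relative to the 67-gene mean of each array, RPS9 stood at 0.06 and 0.29 (2 weeks), -0.01 and -0.11 (4 weeks), and -0.18 and -0.05 (8 weeks).

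RPS21, a small-subunit gene singled out after its values were seen, had signals of 5038 and 7657 (2 weeks), 5472 and 5791 (4 weeks), and 5636 and 5367 (8 weeks). RPS3, which also borders the mRNA entry, was at 6039 and 7903 (2 weeks), 6236 and 6372 (4 weeks), and 6448 and 6407 (8 weeks). In both genes, as in RPS9, a single array (2wk replicate 2) was above all others. Without 2wk replicate 1, RPS21 had a log2 difference of -0.48 between 8 and 2 weeks (limma adjusted p = 0.0494), 3 of 66 genes passed (RPS9, RPS21 and RPL29), and 13.4% of all probe sets passed in that fit. For 4 against 2 weeks 1 of 66 passed in that fit (RPS9, log2 difference -0.56, limma adjusted p = 0.0423), against 7.83% of all probe sets. Without 2wk replicate 2 no gene of the family and 0% of all probe sets passed in either comparison.

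RPS6, the small-subunit protein that S6 kinases phosphorylate downstream of mTOR, was at 6043 and 7798 (2 weeks), 6446 and 7058 (4 weeks), and 7392 and 6643 (8 weeks). RPS14, a protein of the subunit's platform, was at 6058 and 8109 (2 weeks), 6789.5 and 6902 (4 weeks), and 6880.4 and 6505 (8 weeks). RPSA, also known as the laminin receptor precursor, had means of 7156 ± 1016, 6617 ± 400 and 6594 ± 116 (SD, n = 2) at the 3 ages. None of the 3 kept the ages apart. Their log2 differences between 8 and 2 weeks were 0.03, -0.07 and -0.11 (limma adjusted p of 0.966, 0.923 and 0.862).

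RPS15A was the small-subunit gene with the lowest p among those higher at 8 than at 4 weeks, at 6186 and 8523 (2 weeks), 6827 and 7262 (4 weeks), and 7842 and 7311 (8 weeks). Its 8-week values were above both 4-week values and between the 2-week ones (log2 difference from 4 weeks 0.10 ± 0.19 SE). RPS24, mutated in some inherited bone marrow failure, was at 6345 and 7963 (2 weeks), 7102 and 8124 (4 weeks), and 7293 and 6715 (8 weeks). Its 4-week mean was the highest of the 3 ages, with a log2 difference of 0.10 ± 0.18 SE from 2 weeks. Both genes overlapped between 8 and 2 weeks.

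RPL19 and RPL13, both large-subunit proteins, were among the genes with the lowest p in the opposite direction, lower at 8 than at 4 weeks. RPL19 was at 4601 and 6614 (2 weeks), 4978 and 6247 (4 weeks), and 5240.2 and 4809 (8 weeks), and RPL13 at 5936 and 8422 (2 weeks), 6635 and 7784 (4 weeks), and 7022 and 6475 (8 weeks). In both the 8-week values lay inside the range of the 4-week ones or just below it, and 4wk replicate 2 was the second highest array. The log2 difference from 4 weeks was -0.15 ± 0.22 SE for RPL19 and -0.09 ± 0.20 SE for RPL13.

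In the large subunit, RPL29, a small basic protein that also binds heparin, was at 4953 and 7426 (2 weeks), 5376 and 5526 (4 weeks), and 5487 and 4965 (8 weeks). RPL3, which reaches toward the peptidyl transferase centre, was at 5176 and 7199.7 (2 weeks), 5192 and 6039 (4 weeks), and 5530.1 and 5145 (8 weeks), and RPL8, another protein near that centre, at 5320.3 and 7590.2 (2 weeks), 5561 and 6093 (4 weeks), and 5765 and 5360.0 (8 weeks). All 3 were highest in 2wk replicate 2, and the later arrays lay between the 2-week replicates or just below or above the lower one. For 8 against 2 weeks RPL29 differed by -0.22 ± 0.21 SE, RPL3 by -0.19 ± 0.20 SE and RPL8 by -0.19 ± 0.20 SE, with limma adjusted p-values of 0.771, 0.783 and 0.787. Without 2wk replicate 1 the difference of RPL29 was -0.51 (limma adjusted p = 0.0443), that of RPL3 -0.43 (0.0849) and that of RPL8 -0.45 (0.0656).

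The stalk of the large subunit, which receives the elongation factors, is represented by RPLP0 and RPLP2. RPLP2 was at 5684 and 7444 (2 weeks), 5692 and 5891 (4 weeks), and 5881 and 5562 (8 weeks). It was higher in 2wk replicate 2 than in the other arrays, whose values spanned 5562 to 5891. RPLP0, often used as a reference gene, had means of 5994 ± 952, 5805 ± 640 and 5877 ± 286 (SD, n = 2). The log2 difference between 8 and 2 weeks was -0.19 ± 0.19 SE for RPLP2 and -0.02 ± 0.19 SE for RPLP0 (limma adjusted p = 0.774 and 0.978). The difference between the 2 stalk genes was not tested.

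RPL5 and RPL11, which travel with the 5S ribosomal RNA and can bind the p53 regulator MDM2, were at 6757 and 7833 (2 weeks), 7091 and 8139 (4 weeks), and 7748 and 7434 (8 weeks), and at 6820.0 and 8759 (2 weeks), 7246 and 7686 (4 weeks), and 7627 and 7628 (8 weeks). RPL5 was highest in 4wk replicate 2 and RPL11 in 2wk replicate 2, and in both genes 2wk replicate 1 was the lowest array. RPL13A, a large-subunit protein that can leave the ribosome, had means of 7708 ± 1426, 7407 ± 791 and 7273 ± 512 (SD, n = 2). Their log2 differences between 8 and 2 weeks were 0.06, -0.02 and -0.07. RPL38, a small protein linked to the translation of Hox mRNAs, had means of 6584 ± 1323, 6874 ± 200 and 6812 ± 454 (SD, n = 2), and its 2-week values (5649 and 7520) enclosed all later ones.

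RPL10, RPL36A and RPL39 lie on the X chromosome, which male germ cells silence during meiosis. Whether any germ cells in these samples were in meiosis was not tested. RPL10 was at 6339 and 8752 (2 weeks), 6895 and 7041 (4 weeks), and 7529.8 and 6656 (8 weeks), RPL36A at 3780.3 and 4767 (2 weeks), 3714 and 4319 (4 weeks), and 4235 and 3614 (8 weeks), and RPL39 at 6269.5 and 8521 (2 weeks), 6928 and 7764 (4 weeks), and 7240.0 and 6978 (8 weeks). As a set of 3 they averaged -0.16 and 0.25 (2 weeks), -0.08 and 0.06 (4 weeks), and 0.04 and -0.11 (8 weeks), near the averages of all 67. Their log2 differences between 8 and 2 weeks were -0.07, -0.12 and -0.04 (limma adjusted p of at least 0.868). RPS4Y1 is named for the Y chromosome in other mammals, but the cattle gene table places the gene with this symbol on an autosome. The symbol may stand for an RPS4 copy, and its probe set may also measure RPS4X, which has no named probe set here. It was at 5596 and 6679.5 (2 weeks), 6089 and 6638 (4 weeks), and 6557 and 6217 (8 weeks), with a log2 difference of 0.06 between 8 and 2 weeks.

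Few genes left the group. After the 67-gene mean of each array was taken off, the SD over the 6 arrays of what remained had a median of 0.06 (range 0.02 to 0.17) in the 62 genes of signal at least 1000, where the SD before had a median of 0.15 (0.09 to 0.25) against 0.16 in the 118 other probe sets of signal at least 3000, 0.13 in the 8 other genes with a terminal pyrimidine tract and 0.26 in all tested probe sets. The array mean was taken off for the members only, so the 0.06 has no counterpart in those groups. RPL34 (SD 0.0158) and RPL4 (0.0180), singled out after their values were seen, stayed closest to the group. RPL4, which lines the exit tunnel, was at 6627 and 8670.4 (2 weeks), 7231 and 7966 (4 weeks), and 7772 and 7289 (8 weeks). These values describe the members against their own mean and carry no test.

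The 12 genes with the largest departures were RPS19, RPL37, RPL3L, RPL7L1, RPS28, RPS9, RPL26L1, RPL10A, RPL29, RPL7, RPL31 and RPL27A. Of these, 5 had a mean signal under 1000, and the others ranged from 1057 for RPS28 to 7059 for RPL27A. RPL7 was below the group in 2wk replicate 2 (-0.20), with signals of 6464 and 6823 (2 weeks), 6187 and 7367 (4 weeks), and 7080.0 and 6611 (8 weeks). RPL10A went the other way, at 4377 and 6787 (2 weeks), 4483 and 5368 (4 weeks), and 5031 and 4498 (8 weeks), a log2 gap of 0.63 between the 2-week replicates where RPL7 had 0.08. RPL31 and RPL27A stood above the group in 4wk replicate 2 (0.14 and 0.15) and 8wk replicate 1 (0.12 and 0.13) and below it in 4wk replicate 1 (-0.13 and -0.09).

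**Figure D4:**
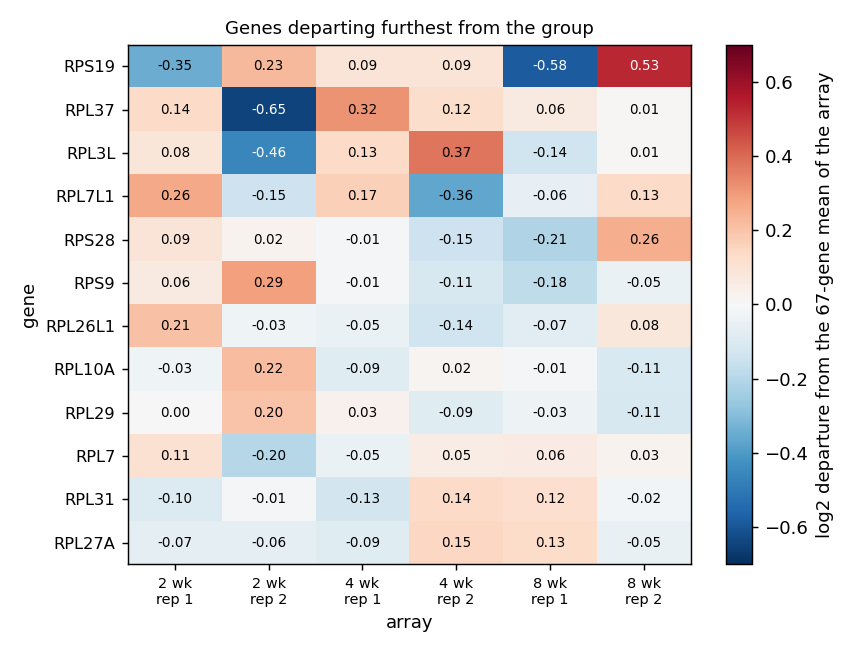
Log2 departure of the 12 genes with the largest SD of departure (rows) from the 67-gene mean of each array (columns); red is above and blue below that mean, with the value printed in each cell. The dim probe sets of RPS19 (-0.58 to 0.53), RPL37 and RPL3L depart most, and among the bright genes RPS9 and RPL10A stand at 0.29 and 0.22 in 2wk replicate 2.

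RPS19 and RPL37 are core ribosomal proteins, but their named probe sets were dim. RPS19, the gene most often mutated in Diamond-Blackfan anaemia, was at 5.3 and 25.3 (2 weeks), 14.7 and 18.1 (4 weeks), and 4.5 and 26.2 (8 weeks), below the highest Bacillus control (28.1) on all 6 arrays, and lay under the filter. Its other named probe set was at 1 to 7.3. RPL37 was at 37.7 and 24.7 (2 weeks), 48.8 and 47.2 (4 weeks), and 42.0 and 37.3 (8 weeks), below that control in 2wk replicate 2 only. No level of either mRNA is read from these probe sets, and the log2 difference of RPL37 (0.45 ± 0.27 SE for 4 against 2 weeks) came with a 95% interval of -0.14 to 1.05. RPS28, a small-subunit protein near the mRNA exit, was at 992 and 1242 (2 weeks), 983 and 999 (4 weeks), and 913 and 1209.8 (8 weeks). Its 8-week replicates were the lowest and the second highest of the 6 arrays.

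Probe sets named for copies of ribosomal protein genes were read separately from those of their partners. RPL26L1, a near-identical copy of RPL26, was at 709 and 786 (2 weeks), 631 and 660.4 (4 weeks), and 661 and 703 (8 weeks). It was the 1 gene of the family whose 2-week arrays were both above every later array, with a log2 difference of -0.20 ± 0.20 SE for 4 against 2 weeks and -0.13 for 8 against 2 weeks (limma adjusted p = 0.944 and 0.86). RPL26 itself, shown as its partner, was at 5716 and 7573 (2 weeks), 6243 and 6650.1 (4 weeks), and 6268 and 6006 (8 weeks), with a log2 difference of -0.10 for 8 against 2 weeks. Probes for such similar transcripts may share signal.

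RPS27L, a copy of RPS27 that responds to p53, was at 1442 and 1804 (2 weeks), 1619.9 and 1820.4 (4 weeks), and 1705 and 1649 (8 weeks), and RPS27 at 6472 and 8646 (2 weeks), 6893 and 7967 (4 weeks), and 7795 and 7036 (8 weeks). Both were lowest in 2wk replicate 1. RPL7L1, an RPL7 relative of the nucleolus, was at 558 and 547 (2 weeks), 556 and 424 (4 weeks), and 506 and 552 (8 weeks). It was lowest in 4wk replicate 2 and nearly level on the other arrays. RPL3L, a copy of RPL3 used in heart and skeletal muscle, was at 53.7 and 46.6 (2 weeks), 60.9 and 84.9 (4 weeks), and 51.7 and 55.5 (8 weeks). RPL3L was lowest in 2wk replicate 2. The summed signal of the 5 skeletal muscle markers was highest there (1528.9, against 907.8 to 1220.9 on the other arrays). Most of that sum was CKM (1123.8), and MB was lower there than in 2wk replicate 1 (25.6 against 40.2). Whether muscle cells had a part in the RPL3L signal was not tested. The 4-week values of RPL3L were above those of both other ages (log2 difference 0.42 ± 0.26 SE from 2 weeks and -0.34 ± 0.26 SE from 4 to 8 weeks; limma adjusted p = 0.944 and 1).

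Further probe sets of these genes were those that the choice of the brightest one ranked lower. They were read on the same arrays, so they cannot independently check a shift shared by a whole array. There were 27 further probe sets for 18 genes, with mean signals from 3.73 to 6099 and a median of 138, and 22 lay above the filter. Only 3 had a mean signal of at least 1000. The second RPL10 probe set was at 5399 and 7344 (2 weeks), 5771 and 6254 (4 weeks), and 6086 and 5738 (8 weeks), and the second RPLP0 probe set at 4355 and 5490, 4518 and 5066, and 4726 and 4715. Both repeated the high 2wk replicate 2 and the low 2wk replicate 1 of the brighter probe sets. The second RPL24 probe set did not: it was at 1102 and 719.9 (2 weeks), 1108 and 1029 (4 weeks), and 1202 and 1278 (8 weeks), lowest where the brighter one was highest (8264). Of the 27, 15 were higher in 2wk replicate 2 than in 2wk replicate 1. In limma 0 of the 22 passed the adjusted threshold for 8 against 2 weeks, as did 0% of all probe sets. 1 had an unadjusted p under 0.05 (the dimmest RPL32 probe set, log2 difference -0.70, limma adjusted p = 0.672), where 6.95% of all probe sets did. For 4 against 2 weeks 1 of the 22 did so, against 3.6%. It was the second RPL3 probe set (mean signal 32.0), at 0.75 where the brighter one was at -0.12. For 8 against 4 weeks it was 1 of the 22 (the dimmest RPL9 probe set, -0.63), against 2.5%.

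Mitochondrial ribosomal proteins, which build the separate ribosome of mitochondria, are a separate list. The 67 named genes averaged -0.07 and 0.29 (2 weeks), -0.07 and -0.09 (4 weeks), and -0.08 and 0.01 (8 weeks). They were high in 2wk replicate 2 alone (60 of 67 above their own mean), and with quantile normalization they still stood at 0.30 there. The cytosolic genes stood at 0.01, but that setting fixes the level of the brightest probe sets, where most of them lie. The 2 values are therefore not a like comparison. The median log2 difference was -0.15 for 8 against 2 weeks and -0.20 for 4 against 2 weeks. No gene passed the adjusted limma threshold. Of the 67, 0 higher and 1 lower (MRPL10) had an unadjusted limma p under 0.05 for 8 against 2 weeks. Over all probe sets 6.95% did. MRPL10 was at 628 and 925 (2 weeks), 551 and 509 (4 weeks), and 568 and 474 (8 weeks), and MRPS31, the lowest p among the higher ones, at 156 and 154 (2 weeks), 173 and 163 (4 weeks), and 221 and 213 (8 weeks). The difference between the 2 ribosome families was not tested.

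Genes that serve translation did not pass either. Of 31 measured translation factors 0 had an unadjusted limma p under 0.05 for 8 against 2 weeks in either direction (median log2 difference -0.05). EIF3D and EIF3G, subunits of the initiation factor that scaffolds the small subunit, were at 1259 and 2070.4 (2 weeks), 1176 and 1222 (4 weeks), and 1292 and 996 (8 weeks), and at 1010.0 and 1687 (2 weeks), 1120.0 and 1141 (4 weeks), and 959.5 and 938 (8 weeks). The release factor ETF1 was at 194 and 87.5 (2 weeks), 221 and 196 (4 weeks), and 208 and 212 (8 weeks). In all 3 the array that stood apart was 2wk replicate 2, high for the EIF3 genes and low for ETF1. The oxidative phosphorylation list had a median of -0.13, with 0 higher and 1 lower (ATP5MC1) of 43 genes at an unadjusted p under 0.05, and averaged 0.32 in 2wk replicate 2. Over all probe sets 510 were higher and 492 lower at that level.

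Other mRNAs with the terminal pyrimidine tract had array averages near those of the 118 other bright probe sets given above. The 8 measured genes, which include the ribosomal fusion gene FAU, averaged -0.13 and 0.15 (2 weeks), -0.09 and 0.10 (4 weeks), and 0.07 and -0.09 (8 weeks), and 0 of 8 reached an unadjusted p under 0.05. With quantile normalization their averages lay between -0.06 and 0.04, with 2wk replicate 2 at -0.02. FAU was at 5892 and 8698 (2 weeks), 6257 and 6631 (4 weeks), and 6626 and 6477 (8 weeks), and the poly(A)-binding protein gene PABPC1 at 2856 and 3145 (2 weeks), 2966 and 3140.1 (4 weeks), and 3536 and 2934 (8 weeks). FAU was highest in 2wk replicate 2 and PABPC1 in 8wk replicate 1. Of 31 ribosome biogenesis genes 1 was higher (UTP6, of the small-subunit processome) and 1 lower (NHP2, of the H/ACA particles). This held at an unadjusted limma p under 0.05 for 8 against 2 weeks, a level that 6.95% of all probe sets reached. UTP6 was at 306 and 169 (2 weeks), 388 and 346 (4 weeks), and 409 and 475 (8 weeks), lowest in 2wk replicate 2 and above both 2-week values on all 4 later arrays (log2 difference 0.90, limma adjusted p = 0.672). NHP2 was at 425 and 484 (2 weeks), 364 and 389 (4 weeks), and 328 and 292 (8 weeks) (log2 difference -0.53). Of 9 measured regulators 0 reached that level, among them MYC, a driver of ribosomal protein transcription, at 206 and 317 (2 weeks), 232 and 212 (4 weeks), and 188 and 169 (8 weeks), and the kinase gene AKT1 at 511 and 913 (2 weeks), 417 and 532 (4 weeks), and 477 and 403 (8 weeks). Both were highest in 2wk replicate 2. In none of the 3 comparisons did a gene of these lists pass the adjusted limma threshold. At an unadjusted limma p under 0.05, 4 against 2 weeks gave 2 lower genes of 67 mitochondrial ribosomal proteins. It also gave 1 higher gene of 31 in ribosome biogenesis and 1 lower of 43 in oxidative phosphorylation, against 3.6% of all probe sets. For 8 against 4 weeks it was 1 lower gene of 31 in ribosome biogenesis, against 2.5% of all probe sets.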

How the data were processed

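The deposited table holds linear signal intensity values, 1 for each probe set and array. GCOS 1.4.0.036 is the tool named per the submitters' processing notes. How probes were summarised is not given in the sources used here, and detection calls were not used. Equal trimmed means (2% left out at each end) show that the arrays had been scaled, and rescaling used factors of 0.999975 to 1.00002. Scaling by a trimmed mean does not align the brightest probe sets, among which most members lie.

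Of 24128 probe sets 112 controls were left out. Log2(signal + 16) of the upper 60% (14409, mean signal about 30.1 or more) was fitted with limma 3.58.1 in R 4.3.3, lmFit and eBayes(trend=TRUE), with 1 coefficient per age, 3 residual degrees of freedom and Benjamini-Hochberg adjustment over all 14409. The fit was tested on simulated data. The 94 member probe sets all matched an Entrez identifier of the ARS-UCD2.0 gene table, with 0 symbols differing. No coordinates or sequences are given.

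Members and lists were chosen with earlier results of these data known. Named genes are the 12 largest departures, the 5 higher and 5 lower members of smallest p per comparison, a panel of members and copies, members below the Bacillus controls, and up to 3 genes per list. Alternatives were pseudocounts 1 and 64, no filter, the upper 40%, quantile normalization, no variance trend, a replicate block, each array left out, only the 2 ages compared, all probe sets of a gene averaged, and no copies.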

Additional observations from a re-analysis of the deposited data

How the results depend on the processing

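The count of members past the adjusted limma threshold was 0 in each comparison under every alternative except 1: leaving out single arrays gave 0 to 3 for 8 against 2 weeks and 0 to 1 for 4 against 2 weeks, the calls arising without 2wk replicate 1. The mean log2 difference over the members ranged from -0.24 to 0.15 for 8 against 2 weeks, from -0.22 to 0.17 for 4 against 2 weeks and from -0.10 to 0.06 for 8 against 4 weeks when single arrays were left out. All other alternatives, with the members of signal at least 1000 alone added after the data were seen, moved these means by less than 0.17, the SD between replicates. The lone array left at an age was assumed to vary like the others. Without 2wk replicate 1, the share of all probe sets passing (given with RPS21 above) was larger than that of the members in both comparisons. The member calls in that fit therefore do not set the family apart from the other probe sets. With the replicate block, 0 members were called and the 8 against 2 weeks mean was -0.04. The correlation of replicate differences between ages was 0.21 (2 and 4 weeks), -0.0048 (2 and 8 weeks) and -0.06 (4 and 8 weeks). In log2 values 2wk replicate 1 was closest to 4wk replicate 1 (r = 0.976) and 2wk replicate 2 to 4wk replicate 2 (0.950). The 8-week arrays were closest to each other (0.978). Whether equal replicate numbers share more than a label was not tested. With quantile normalization RPS9 alone (1 of 66 members) reached an unadjusted limma p under 0.05 for 8 against 2 weeks. In that setting 970 of all 14409 probe sets did so. Signals near the Bacillus controls limit RPS19 and RPL37, and 2 arrays per age limit all tests.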
